A study of Mus musculus with 48 samples.

Results

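A set of 10 genes of the pericentral hepatocyte programme that depends on Wnt signalling were followed across 48 mouse livers. They were chosen by symbol, with earlier results of these data known, and found by Ensembl identifier. All 10 of them were present among the 55416 genes counted. Of these, Axin2, Lgr5 and Rnf43 feed back on or transmit the Wnt signal, and Tbx3 encodes a transcriptional repressor. Another 4 handle glutamine, ornithine, glutamate and ammonium (Glul, Oat, Slc1a2 and Rhbg). The remaining 2 are Lect2, which encodes a secreted hepatocyte protein, and Gulo, which encodes the last enzyme of vitamin C synthesis.

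The livers came from 2 mouse studies of the oxysterol receptor LXRα, encoded by Nr1h3, with 8 animals in each of 6 groups. DN:WT, DN:HET and DN:HOM mice carried 0, 1 or 2 copies of a knock-in that changes a tryptophan of the protein to arginine (W441R) and makes the receptor dominant negative, and they were male littermates descended from a single CRISPR-Cas9 founder. KO:WT, KO:HET and KO:HOM mice carried 0, 1 or 2 copies of a null allele of the same receptor, from a line first made on a mixed Sv129 and C57Bl/6 background and then backcrossed. All 48 mice are labelled C57Bl/6J and had eaten a western diet for 8 weeks, which according to the methods ran from 8 to 16 weeks of age and contained 0.2% cholesterol. Some DN mice on this diet were killed before its end, and the labels do not say whether any are among these livers. The studies were run at different sites, so site and allele cannot be told apart. RNA was taken from whole liver, so fewer cells of a type and less RNA per cell cannot be told apart.

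Hepatocytes differ along the path of blood from the portal vein to the central vein. Endothelial cells of the central vein release Wnt ligands and R-spondin 3, which stabilise β-catenin in the hepatocytes next to them and there sustain glutamine synthetase (Glul) and its neighbours, while urea-cycle and gluconeogenic genes prevail near the portal vein. Axin2, Rnf43 and Lgr5 are induced by the pathway itself, Axin2 and Rnf43 as brakes and Lgr5 as an R-spondin receptor. Bulk RNA holds no position in the lobule, so the pericentral label could not be checked here.

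Reads on genes per liver ranged from 5332897 to 16961379, and 2 livers were under 10000000 (KO:HET animal 3 and KO:HOM animal 17). Hepatocyte markers were abundant in every liver. Of the DN livers, 2 went against their labels. Of 5270 genes whose DN:HOM and DN:WT livers did not overlap, the library labelled DN:WT animal 10 lay on the DN:HOM side for 96.6%, and the library labelled DN:HOM animal 12 for 4.19%. Both were absent from the livers whose values the study's source data give for Cyp8b1, Baat and Slc27a5, the 3 genes that could be matched. Unless 48 livers are named, the values below are therefore from 46 livers. No liver was moved to another group. Nr1h3 was at 25.3 to 31.1 CPM (reads on a gene per 1000000 reads on genes, scaled by TMM) in KO:HOM livers and at 81.5 to 108 CPM in KO:WT livers, without overlap, and at 48.3 to 65.4 CPM in KO:HET livers. In DN:HOM livers it was at 68.5 to 77.4 CPM, below the 82.1 to 96.9 CPM of DN:WT livers. With 48 livers these ranges overlapped. Over the main fit and 11 alternatives this log2 fold change ran from -0.35 to 0.11 (highest edgeR or DESeq2 adjusted p, 0.13). The knock-in is a point change, so the level of Nr1h3 does not report the allele.

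The 10 genes spanned more than 3 orders of magnitude once each was divided by the length of its canonical transcript. In DN:WT livers the order ran from Glul, with 695 ± 61.3 CPM per kb (SD, n = 7), and Oat, with 591 ± 148, through Gulo, with 183 ± 19.6, and Lect2, with 169 ± 20.6. Slc1a2 followed with 11.5 ± 1.9 CPM per kb (SD, n = 7), then Tbx3 with 9.29 ± 3, Rnf43 with 8.39 ± 1.60, Axin2 with 2.21 ± 0.637, Lgr5 with 1.98 ± 0.562 and Rhbg with 0.334 ± 0.204. The genes that act on nitrogen and the secreted or metabolic products therefore stood above Tbx3 and the components of the Wnt pathway, apart from Slc1a2 and Rhbg. The ranges over livers overlapped between Glul and Oat, between Gulo and Lect2, between Slc1a2 and Tbx3, between Tbx3 and Rnf43 and between Axin2 and Lgr5, so these neighbours were not separated. In DN:HOM livers Glul and Oat fell to 413 ± 71.8 and 213 ± 67.3 CPM per kb (SD, n = 7), and the range of Oat there overlapped that of Gulo at 162 ± 14.6. In KO:HET and KO:HOM livers Oat stood above Glul, with overlapping ranges.

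**Figure D1:**
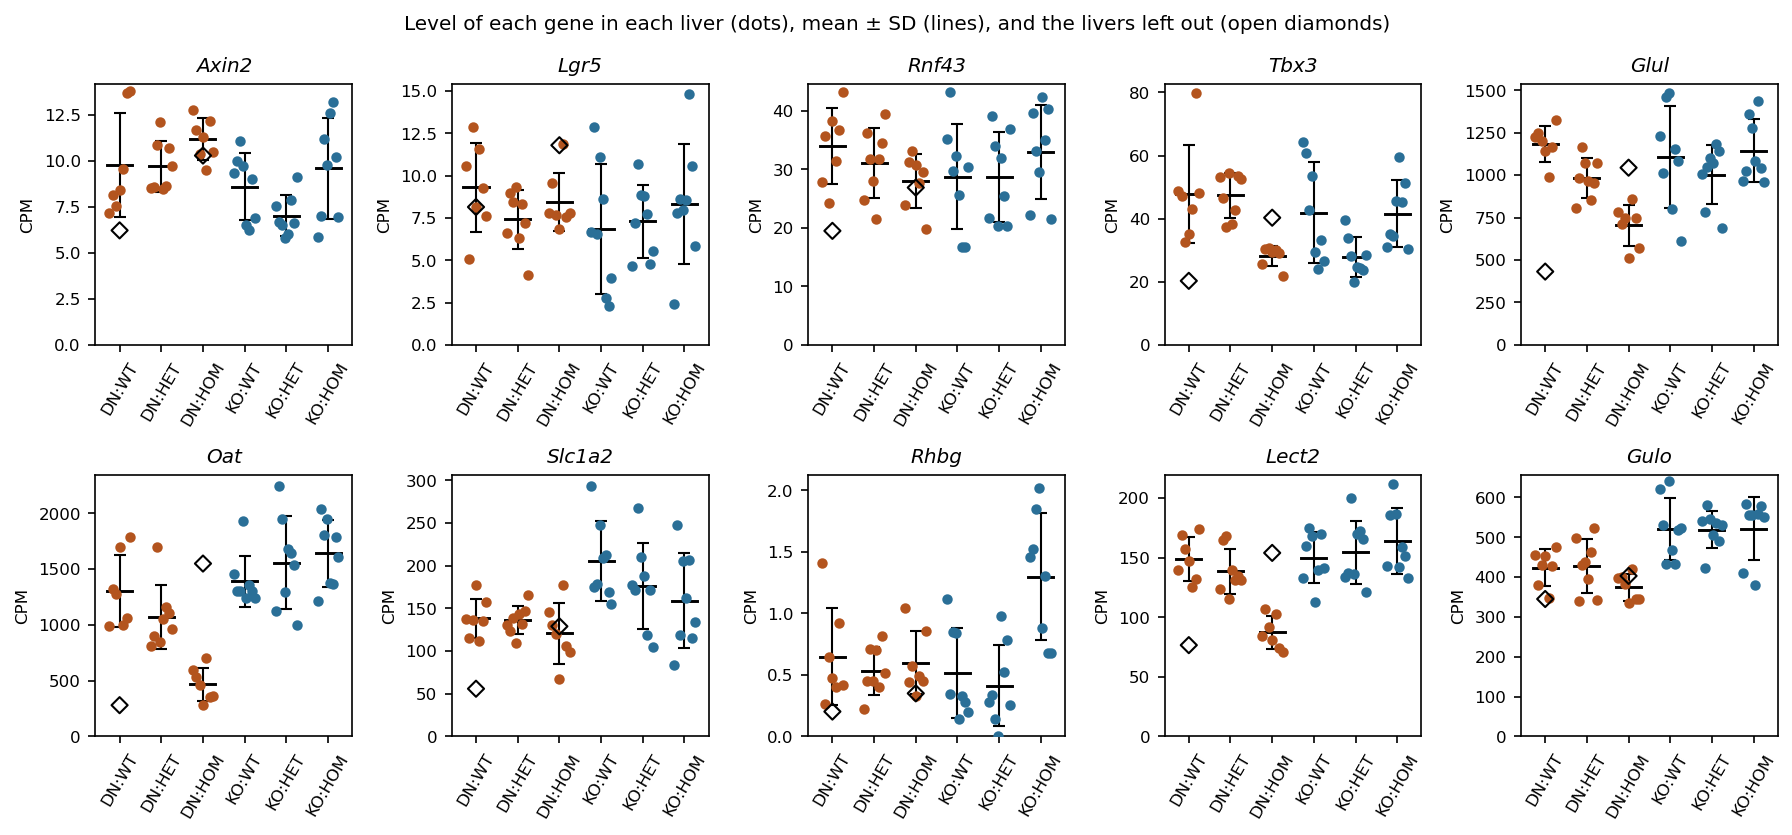
CPM (scaled by TMM, linear axis from 0) of each of the 10 genes in each liver, with 1 dot per liver, short lines for the mean and error bars for the SD over 46 livers, and open diamonds for the 2 livers that went against their labels. In the panels of Glul, Oat, Lect2 and Tbx3 all DN:HOM dots lie below all DN:WT dots, and the diamonds lie on the opposite side.

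The first comparison asked how the genes differed in livers in which every LXRα carries the dominant-negative change. Glul, Oat, Lect2 and Tbx3 were lower in DN:HOM than in DN:WT livers, with Oat the most changed, whereas the remaining 6 genes did not pass the test. So 4 of 10 were called in edgeR's quasi-likelihood test at an adjusted p under 0.05, all 4 lower, where 59.1% of the 15711 genes tested were called and 30% were called lower. The DN:HOM and DN:WT ranges did not overlap for these 4 genes. Of all genes tested, 33.5% did not overlap between the groups and 15.8% were lower without overlap. The median log2 fold change was -0.23 over the 10 genes and -0.01 over all genes. With all 48 livers the same 4 genes were called, against 48% of 15621 genes in either direction and 25% lower, and their ranges then overlapped.

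Glul encodes glutamine synthetase, which fixes ammonia into glutamine in the last hepatocytes before the central vein (ENSMUSG00000026473, chr1:153775690-153785469, plus strand, GRCm39). Its lowest, median and highest levels were 989, 1204 and 1324 CPM in the 7 DN:WT livers and 510, 745 and 860 CPM in the 7 DN:HOM livers. Every DN:HOM liver was below every DN:WT liver. The means were 1185 ± 104 and 704 ± 122 CPM (SD, n = 7 each), a log2 fold change of -0.74 (SE 0.14) with an edgeR adjusted p of 1.4e-05. The library labelled DN:WT animal 10 had 432 CPM, under every DN:HOM liver, and the library labelled DN:HOM animal 12 had 1044 CPM. With both included the log2 fold change was -0.55 (SE 0.16; edgeR adjusted p = 0.0056).

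Oat encodes ornithine aminotransferase, the mitochondrial enzyme that turns ornithine into glutamate semialdehyde (ENSMUSG00000030934, chr7:132159153-132191517, minus strand). It showed the largest difference of the 10 genes in this comparison. The lowest, median and highest levels were 991, 1279 and 1783 CPM in DN:WT and 281, 459 and 700 CPM in DN:HOM livers. The means were 1304 ± 326 and 469 ± 148 CPM (SD, n = 7 each), and the log2 fold change was -1.46 (SE 0.18; edgeR adjusted p = 4e-09). The 2 libraries set aside had 280 CPM (labelled DN:WT) and 1549 CPM (labelled DN:HOM), and the fit that kept both gave -0.96 (SE 0.25; edgeR adjusted p = 0.0021). The annotation used here places part of Fgfr2 on the same strand over Oat, and reads shared between them could not be assigned.

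Lect2 encodes leukocyte cell-derived chemotaxin 2, a secreted hepatocyte protein (ENSMUSG00000021539, chr13:56684477-56696569, minus strand). It ranged from 125 to 174 CPM (median 147) in DN:WT livers and from 71.2 to 107 CPM (median 84.2) in DN:HOM livers. Every DN:HOM liver was below every DN:WT liver. The log2 fold change was -0.76 (SE 0.11; edgeR adjusted p = 1.9e-07), and -0.55 (SE 0.14; edgeR adjusted p = 0.0013) with the libraries set aside, at 76.6 and 154 CPM.

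Tbx3 encodes a T-box transcriptional repressor of pericentral hepatocytes (ENSMUSG00000018604, chr5:119806298-119822797, plus strand). Its levels were 32.7 to 79.7 CPM (median 47.3) in DN:WT and 21.7 to 30.6 CPM (median 29.4) in DN:HOM livers. The highest DN:HOM liver lay just under the lowest DN:WT liver, and DN:WT animal 5 stood above all the others. The log2 fold change was -0.75 (SE 0.19; edgeR adjusted p = 0.00061), and -0.58 (SE 0.19; edgeR adjusted p = 0.012) over 48 livers. With library size alone it was -0.33 with an edgeR adjusted p of 0.12, so this call depended on the scaling. That scaling put the median of all genes at 0.42.

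**Figure D2:**
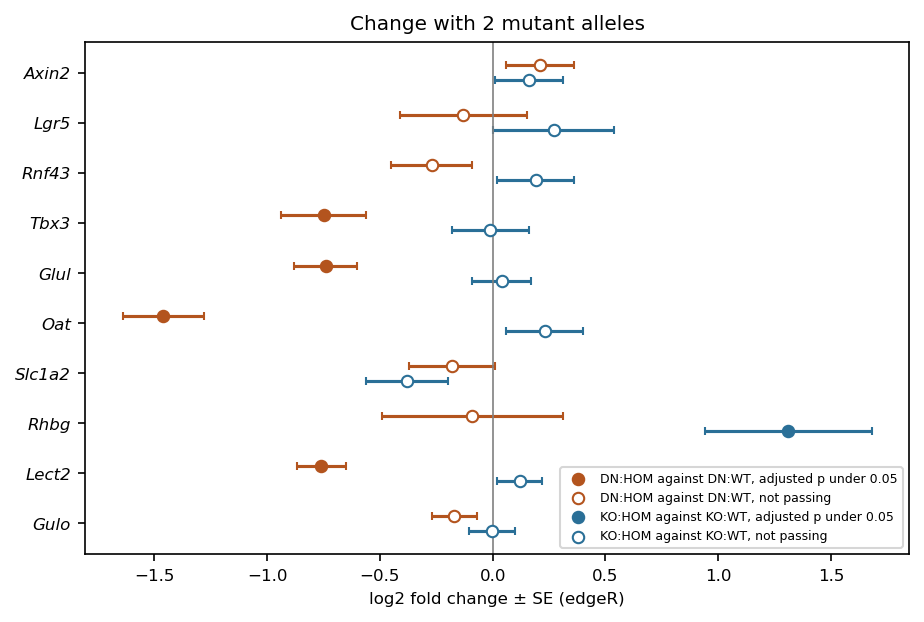
Log2 fold change (points) and SE (bars) of the 10 genes in DN:HOM against DN:WT and in KO:HOM against KO:WT, from edgeR over 46 livers; filled points passed an adjusted p of 0.05. Glul, Oat, Lect2 and Tbx3 lie at -0.74, -1.46, -0.76 and -0.75 in the knock-in and between -0.01 and 0.23 in the knockout, where Rhbg alone is filled.

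Among the genes that did not pass in DN:HOM livers were the other readouts of the pathway. Axin2, the scaffold that directs β-catenin to destruction, was at 9.77 ± 2.82 CPM in DN:WT and 11.2 ± 1.14 CPM in DN:HOM livers (SD, n = 7 each), with overlapping ranges and a log2 fold change of 0.21 (SE 0.15; edgeR adjusted p = 0.25). With library size alone Axin2 was called higher, at 0.64 (edgeR adjusted p = 0.00047), beside a median of 0.42 over all genes. Lgr5, the R-spondin receptor, gave -0.13 (SE 0.28), and Rnf43, the ubiquitin ligase that removes Frizzled receptors from the cell surface, gave -0.27 (SE 0.18). Lgr5 and Rnf43 changed sign with library size alone, to 0.29 and 0.16. The 3 genes had overlapping groups, and intervals this wide do not show that they were equal. Axin2 and Lgr5 rested on 76 reads or more per liver in these 2 groups.

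Slc1a2, the plasma-membrane glutamate transporter GLT-1, ranged from 112 to 177 CPM in DN:WT and from 66.9 to 178 CPM in DN:HOM livers, the wider range on both sides. Its log2 fold change was -0.18 (SE 0.19; edgeR adjusted p = 0.42). Gulo was at 424 ± 45.4 and 375 ± 33.8 CPM (SD, n = 7 each), with a log2 fold change of -0.17 (SE 0.10; edgeR adjusted p = 0.16). With library size alone Gulo turned to 0.26 and was called higher (edgeR adjusted p = 0.024), and Slc1a2 turned to 0.24, beside the median of 0.42 over all genes. Rhbg, an ammonium transporter, was barely detected, with 4 to 22 reads per liver in the 2 groups, and its log2 fold change of -0.09 had an SE of 0.40.

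Marker genes of other cells differed between the same groups, where 29.1% of all genes were called higher and 30% lower. With 48 livers 48% of all genes were called in either direction and 25% lower. Summed over 8 hepatocyte markers, the level was 57803 to 64557 CPM in DN:HOM and 72882 to 91348 CPM in DN:WT livers, although only 3 of these 8 were called lower and 2 were called higher. Alb alone had means of 21257 CPM in DN:HOM and 47412 CPM in DN:WT livers, while Hpx was at 7845 and 3002 CPM. This sum is thus weighted towards Alb and does not measure hepatocyte content. Sums over 6 macrophage markers were 949 to 1441 against 177 to 322 CPM, and all 6 were called higher. Sums over 6 stellate cell and fibroblast markers were 401 to 557 against 144 to 184 CPM (5 of 6 called higher), over 6 cholangiocyte markers 72 to 91.1 against 19.1 to 30.6 CPM (6 of 6), over 4 proliferation markers 46.1 to 75.4 against 4.24 to 12.6 CPM (4 of 4), and over 4 T cell markers 2.37 to 4.07 against 0.888 to 1.77 CPM (3 of 4). Among the cholangiocyte markers, Cftr was at 3.31 to 5.13 CPM in DN:HOM livers and at most 0.826 CPM in the other groups of the 46 livers. DN:HOM livers thus largely carried Cftr past the count filter. Sinusoidal endothelial markers summed to 67.6 to 130 against 102 to 146 CPM, with 4 of 6 called lower and 1 higher. Central vein endothelial markers summed to 13.1 to 27.3 against 15.2 to 22.6 CPM, with 2 of 6 called lower and 1 higher. With 48 livers 0 of 6 central vein markers were called lower and 1 higher in edgeR, 4 of 6 macrophage, 5 of 6 cholangiocyte, 5 of 6 stellate, 3 of 4 proliferation and 1 of 4 T cell markers were called higher, and 4 of 6 sinusoidal markers were called lower and 0 higher. In the library labelled DN:WT animal 10 the macrophage, stellate and cholangiocyte sums were 1446, 521 and 91.4 CPM, and in the library labelled DN:HOM animal 12 they were 195, 155 and 24.3 CPM. No marker was at 0 in every liver of a group. When libraries were scaled to the hepatocyte markers instead, the log2 fold changes in DN:HOM livers were -1.47 for Oat, -0.73 for Glul, -0.76 for Lect2 and -0.73 for Tbx3, and all 4 were called (highest edgeR adjusted p, 0.0064). This scaling put the median of all genes at -0.0012, from -0.01, so it hardly moved this comparison. Reads that named no gene were 24.65% to 26.73% of reads in DN:HOM and 26.16% to 34.31% in DN:WT livers, and 25.48% and 27.03% in the libraries labelled DN:WT animal 10 and DN:HOM animal 12. The part of the other cell types and of this share in the differences was not tested.

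Promoter sequence was examined where it was given, because genes of this programme are reached through the TCF and LEF factors that carry β-catenin to DNA. RefSeq promoters (table build GRCm38.p6) were given for 6 of the 10 genes and matched GRCm39 exactly; Lgr5, Tbx3, Rhbg and Gulo had no entry. The 7-base word CTTTGAT, a core form of the TCF and LEF motif, was searched on both strands (ATCAAAG on the other strand) in the 250 bases before each start. It was present in 2 of the 7 promoters of these genes, those of Lect2 and Slc1a2, against 3.21% of 32851 promoters in the table. Those of Glul, Oat and Lect2, which fell in DN:HOM livers, and of Slc1a2, which holds the word, are given 5′ to 3′ on the strand of the gene, as the longest stretch of those 250 bases without an annotated exon on that strand (holding the word where there is one), with the word in capitals.
Glul, chr1:153775425-153775671, plus strand: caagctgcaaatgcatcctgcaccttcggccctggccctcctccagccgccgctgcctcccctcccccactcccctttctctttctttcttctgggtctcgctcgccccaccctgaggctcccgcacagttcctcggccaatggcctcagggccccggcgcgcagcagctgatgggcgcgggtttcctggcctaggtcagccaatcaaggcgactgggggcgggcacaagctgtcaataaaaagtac
Oat, chr7:132178128-132178203, minus strand: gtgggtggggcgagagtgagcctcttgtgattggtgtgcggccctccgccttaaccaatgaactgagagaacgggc
Lect2, chr13:56696361-56696503, minus strand: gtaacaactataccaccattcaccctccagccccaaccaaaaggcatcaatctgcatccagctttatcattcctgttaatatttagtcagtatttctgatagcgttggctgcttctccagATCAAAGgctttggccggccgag
Slc1a2, chr2:102536533-102536700, plus strand: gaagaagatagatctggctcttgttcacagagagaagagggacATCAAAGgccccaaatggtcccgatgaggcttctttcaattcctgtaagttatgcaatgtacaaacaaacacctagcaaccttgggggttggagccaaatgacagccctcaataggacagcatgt
In Lect2 the word lay 32 to 26 bases before the RefSeq start and in Slc1a2 207 to 201 bases before it. The RefSeq starts of Slc1a2 and Oat lay inside these genes as annotated here (chr2:102488574-102621129 and chr7:132159153-132191517). Windows before other starts of these genes were not searched. Lect2 was lower in DN:HOM livers and Slc1a2 did not pass, while Glul and Oat, which were lower, had no such word in this window. A match of letters does not show binding.

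The second comparison asked the same of livers without LXRα. Of the 10 genes only Rhbg was called in KO:HOM against KO:WT livers, and it was higher, where 19.4% of 15711 genes were called and 11.5% were called higher (12.9% of 15621 genes with 48 livers). The median log2 fold change was 0.14 over the 10 genes and -0.02 over all genes. Glul was at 1143 ± 186 CPM in KO:HOM and 1105 ± 300 CPM in KO:WT livers (SD, n = 8 each), with a log2 fold change of 0.04 (SE 0.13; edgeR adjusted p = 0.86). Oat was at 1643 ± 300 and 1391 ± 227 CPM (0.23, SE 0.17; edgeR adjusted p = 0.36), Lect2 at 164 ± 27.7 and 150 ± 21.5 CPM (0.12, SE 0.10; edgeR adjusted p = 0.46) and Tbx3 at 41.6 ± 10.6 and 41.8 ± 16 CPM (-0.01, SE 0.17; edgeR adjusted p = 0.98). The groups overlapped for all 4 genes. Axin2, Lgr5 and Rnf43 had positive log2 fold changes of 0.16, 0.27 and 0.19, none of which passed. Gulo was within 0.01 of 0 on the log2 scale, with 522 ± 79.5 and 521 ± 78.2 CPM.

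Rhbg ranged from 0.674 to 2.02 CPM (median 1.38) in KO:HOM and from 0.144 to 1.12 CPM (median 0.338) in KO:WT livers, so the ranges overlapped. These levels rest on 8 to 32 and 2 to 16 reads per liver. The log2 fold change was 1.31 (SE 0.37; edgeR adjusted p = 0.0097), and 1.32 (SE 0.39; edgeR adjusted p = 0.018) with all 48 livers. The mean of KO:HOM livers was the highest of the 6 groups, and Rhbg did not reach the count filter in any fit of 2 groups that lacked them. In the fit of 46 livers, livers of other groups also exceeded the minimum count of 10. Examples were DN:HOM animal 15 with 22 reads and KO:WT animal 14 with 16 reads. Gm38392 overlaps Rhbg on the same strand.

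Slc1a2 had the lowest log2 fold change of the 10 genes in this comparison, -0.38 (SE 0.18), and missed the threshold (edgeR adjusted p = 0.14). Its range was 84.1 to 248 CPM in KO:HOM and 155 to 294 CPM in KO:WT livers. Without the 2 livers under 10000000 reads the log2 fold change was -0.49 with an edgeR adjusted p of 0.048, so the call turned on leaving out KO:HET animal 3 and KO:HOM animal 17 together, and the latter was the highest of its group at 248 CPM. Slc1a2 lies 11.5 Mb from Nr1h3 on chromosome 2, in a line that began on a mixed background, and the part of linked alleles in this value was not tested.

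Marker genes differed between the knockout groups too, where 11.5% of all genes were called higher and 7.87% lower. With 48 livers 12.9% of all genes were called in either direction. Hepatocyte markers summed to 69601 to 85948 CPM in KO:HOM and 88916 to 115923 CPM in KO:WT livers. Alb alone had means of 41065 CPM in KO:HOM and 55195 CPM in KO:WT livers, while Hpx was at 4804 and 3230 CPM. Of these 8 markers 3 were called lower and 1 higher, and with 48 livers 1 was called lower and 0 higher. Macrophage markers summed to 305 to 1236 against 120 to 279 CPM, with 5 of 6 called higher. T cell markers summed to 3.47 to 15.9 against 0.613 to 3.16 CPM (4 of 4 called higher), and stellate cell and fibroblast markers to 211 to 376 against 136 to 276 CPM (4 of 6 called higher, and 2 of 6 with 48 livers). Proliferation markers summed to 6.43 to 26.6 against 1.86 to 13.5 CPM, with 1 of 4 called higher (0 of 4 with 48 livers in edgeR). Cholangiocyte markers summed to 20.4 to 26.6 against 16.4 to 27.2 CPM, with 0 of 6 called in either direction by edgeR. Scaling to hepatocyte markers put the median of all genes at 0.16 in this comparison, from -0.02, and left Rhbg as the 1 gene of the 10 that was called.

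The difference between the homozygous effects was then tested directly, since the 2 studies share no livers. The effect in the knock-in was called lower than in the knockout for 5 of the 10 genes, Rhbg among them, where 34.7% of all genes differed and 18.3% differed in this direction. The difference of log2 fold changes, DN minus KO, was -1.69 (SE 0.25; edgeR adjusted p = 6.3e-07) for Oat, -0.88 (SE 0.15; edgeR adjusted p = 1.6e-05) for Lect2, -0.78 (SE 0.19; edgeR adjusted p = 0.0011) for Glul, -0.74 (SE 0.26; edgeR adjusted p = 0.020) for Tbx3 and -1.39 (SE 0.55; edgeR adjusted p = 0.043) for Rhbg. Rhbg rested on at most 32 reads per liver and was not tested in fits of 2 groups that lacked KO:HOM livers. Its value here is therefore a description and is not support for a difference. Its adjusted p in edgeR or DESeq2 was over 0.05 under 7 of 11 alternatives. With all 48 livers only Oat (-1.20, SE 0.36; edgeR adjusted p = 0.026) and Lect2 (-0.68, SE 0.19; edgeR adjusted p = 0.022) passed, beside 10.5% of all genes, and Glul had -0.60 (edgeR adjusted p = 0.081). The difference was 0.05 (SE 0.21) for Axin2, -0.40 (SE 0.39) for Lgr5, -0.45 (SE 0.25) for Rnf43, 0.19 (SE 0.26) for Slc1a2 and -0.16 (SE 0.14) for Gulo, none of which passed.

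One mutant allele left no call among the 10 genes in either study. In DN:HET against DN:WT livers 0 of 10 were called by edgeR (1 of 10 at an unadjusted p under 0.05), where 2.3% of all genes were called. DESeq2 also called 0. Glul ranged from 808 to 1168 CPM in DN:HET livers (median 975), between the medians of DN:WT and DN:HOM livers and overlapping both. Its log2 fold change against DN:WT was -0.27 (SE 0.13; edgeR adjusted p = 0.38). Oat in DN:HET livers lay between 812 and 1701 CPM (median 1010), above every DN:HOM liver, with a log2 fold change of -0.29 (SE 0.17; edgeR adjusted p = 0.50) against DN:WT. Lect2 and Tbx3 in DN:HET livers, at 115 to 168 and 37.3 to 54.6 CPM, were also above every DN:HOM liver. In KO:HET against KO:WT livers 0 of 10 were called by edgeR and by DESeq2 (1 of 10 at an unadjusted p under 0.05 in edgeR), where 0.0191% of all genes were called. The gene under 0.05 was Tbx3, at 27.8 ± 6.24 CPM in KO:HET and 41.8 ± 16 CPM in KO:WT livers (SD, n = 8 each), with a log2 fold change of -0.58 (SE 0.18; edgeR adjusted p = 0.53).

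The wild-type livers of the 2 studies differed in 2 of the 10 genes, both higher in KO:WT, where 12% of all genes differed and 6.47% were higher. Slc1a2 was at 205 ± 46.7 CPM in KO:WT (SD, n = 8) and 139 ± 22.8 CPM in DN:WT livers (SD, n = 7), a log2 fold change of 0.57 (SE 0.19; edgeR adjusted p = 0.036). Gulo was at 521 ± 78.2 and 424 ± 45.4 CPM, a log2 fold change of 0.30 (SE 0.10; edgeR adjusted p = 0.037). Both ranges overlapped, and neither gene was called after scaling to hepatocyte markers (0.36 and 0.08, where the median of all genes was -0.21). The difference in sites applies to this comparison in full.

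The rest of the pathway was read from lists written with earlier results of these data known. Among 12 Wnt ligands, R-spondins and their release factors, 9 were tested, and in DN:HOM livers 3 were called higher and 2 lower, where 29.1% of all genes were called higher and 30% lower. Wls, which carries Wnt ligands to the cell surface, rose by 2.04 (log2), Wnt4 by 1.99 and Wnt5a by 1.42. The ligands of the central vein gave other values. Wnt2 was at -0.76 (edgeR adjusted p = 0.024), Wnt9b at -0.83 (edgeR adjusted p = 0.054), and Rspo3 at 0.0037 with 5.26 CPM in DN:HOM and 5.29 CPM in DN:WT livers. Wnt2 and Wnt5b were no longer called with all 48 livers (edgeR adjusted p = 0.11 and 0.086). In KO:HOM livers, where 11.5% of all genes were called higher and 7.87% lower, Wnt4 (0.62) and Wls (0.58) were called higher and Porcn (-0.92), the acyltransferase of Wnt ligands, lower, and Wnt2 had 0.02. With 48 livers Wnt4 and Wls were no longer called there (edgeR adjusted p = 0.18 each). The median over the list was 0.0037 in DN:HOM and 0.10 in KO:HOM livers.

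Of 12 Wnt receptors tested, 3 were called higher and 3 lower in DN:HOM livers, shares near the 29.1% and 30% of all genes, with Fzd1 at 0.67 and Fzd4 at -0.70, and 0 in KO:HOM livers, where 0 also passed with 48 livers. Fzd3, one of the 12, had a mean of 0.895 CPM in DN:HOM livers and of at most 0.229 CPM in the other groups. DN:HOM livers thus largely carried Fzd3 past the count filter. Of 13 genes for β-catenin and its turnover, 2 were higher and 3 lower in DN:HOM livers (1 and 2 with 48 livers), below the shares of all genes. Ctnnb1, which encodes β-catenin, rose by 0.36 (edgeR adjusted p = 9e-07) and the kinase genes Gsk3a and Gsk3b were at -0.21 and -0.25. Of 9 nuclear partners tested, 4 were higher and 1 lower in DN:HOM livers (one of the 4, Pygo1, was at 0.896 to 1.58 CPM there and at a mean of at most 0.396 CPM in the other groups, so that DN:HOM livers largely carried it past the count filter), with Tcf7 at 0.90 and Tcf7l2, which encodes a main partner of β-catenin on DNA in hepatocytes, at -0.29, and 2 were higher and 1 lower in KO:HOM livers, beside 11.5% and 7.87% of all genes. With 48 livers 2 were higher and 0 lower in DN:HOM livers, and Tcf7l2 was not called (edgeR adjusted p = 0.067). Of the secreted inhibitors 4 of 10 reached the count filter. Dkk3 (2.92), Sfrp1 (3.30) and Frzb (2.59) were higher in DN:HOM livers, where 29.1% of all genes were called higher. Sfrp1 went from a mean of 0.191 CPM in DN:WT to 1.92 CPM, so DN:HOM livers may have carried it past the count filter. Notum, which removes the lipid from Wnt ligands and is itself a pericentral target, was at 28.2 CPM against 28.5 CPM and did not pass. In KO:HOM livers Frzb (1.44) and Dkk3 (1.20) were higher, beside 11.5% of all genes.

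Of 10 other known targets of β-catenin tested, 7 were called higher and 1 lower in DN:HOM livers, where 29.1% of all genes were called higher and 30% lower, with Cd44 at 2.70, Ccnd1 at 2.18, Sox9 at 1.98 and Myc at 1.66 and Sp5 at -0.60. The list median was 1.28. With 48 livers 6 were higher and 0 lower, with a median of 0.95. These targets are not restricted to hepatocytes, and Sox9 is also among the cholangiocyte markers, whose sum rose in the same livers. Tcf7, Znrf3 and Notum are each counted in another list above as well. Nkd2, one of the 7 called higher with 46 livers, had a mean of 0.866 CPM in DN:HOM livers and of at most 0.348 CPM in the other groups. DN:HOM livers thus largely carried Nkd2 past the count filter. Myc and Sp5 were not called with 48 livers (edgeR adjusted p = 0.062 and 0.19). In KO:HOM livers 3 of 10 were higher and 0 lower, beside 11.5% and 7.87% of all genes, with Cd44 at 1.09, and the list median was 0.31. With 48 livers 2 were higher.

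Genes of both ends of the lobule were then counted in DN:HOM livers, where 30% of all genes were called lower and 29.1% higher. Of 22 other pericentral genes 14 were called lower and 5 higher, with a median of -0.66 (13, 3 and -0.43 with 48 livers). The cytochromes Cyp2c54, Cyp2c29 and Cyp2c37 were at -3.37, -3.20 and -3.07, each larger than the change of Oat, while Gstm3 was at 2.79; reads of these paralogous families may be shared between members. Of 24 periportal genes 16 were called lower and 3 higher, with a median of -0.84 (16, 2 and -0.67 with 48 livers), and among those lower were Hal (-1.58), Gldc (-1.40) and Cps1 (-1.38), the entry enzyme of the urea cycle. Cdh1 was the largest of those that rose, at 2.84. In KO:HOM livers 1 of 22 pericentral genes was lower and 4 were higher, with Gstm3 at 2.16 and Slc13a3 at 1.27, and 5 of 24 periportal genes were lower and 2 higher, where 7.87% of all genes were called lower and 11.5% higher. The medians there were 0.06 and -0.13. With 48 livers 0 pericentral genes were called lower and 3 higher in edgeR, and 2 periportal genes were lower and 2 higher.

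Of 15 other genes of glutamate and ammonia handling tested, 8 were lower and 3 higher in DN:HOM livers, beside 30% and 29.1% of all genes, with a median of -0.37. The counts were the same with 48 livers. Prodh, which like Oat feeds the pool of glutamate semialdehyde from proline, was at -1.66, and Slc38a3, the glutamine transporter of hepatocytes, at -1.45. Aldh18a1, which makes the semialdehyde from glutamate, rose by 1.85, and the amino acid exchanger subunit Slc7a7 by 1.77. In KO:HOM livers 2 were lower and 1 higher, beside 7.87% and 11.5% of all genes, with Got1 at -1.24, Slc38a2 at -0.64 and Slc7a7 at 0.99.

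**Figure D3:**
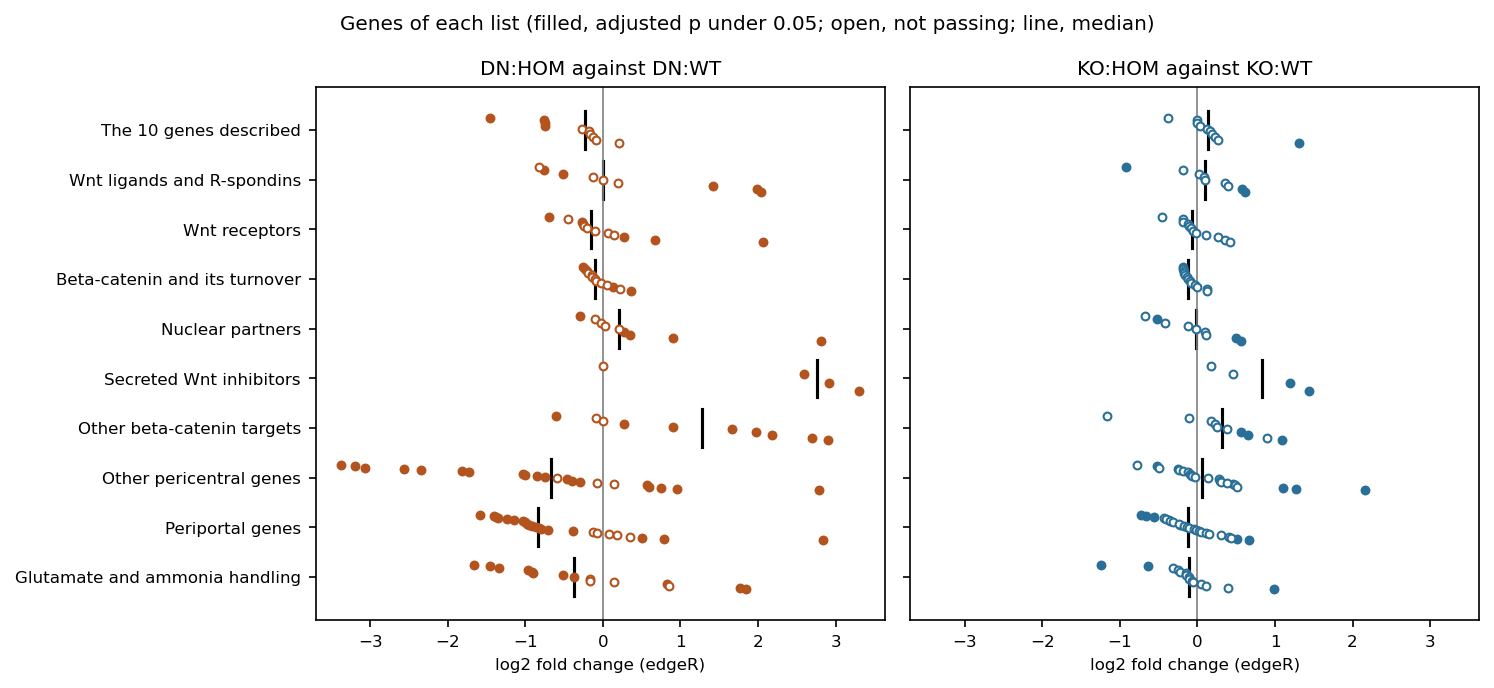
Log2 fold change of each tested gene by list, in DN:HOM against DN:WT (left) and KO:HOM against KO:WT (right), from edgeR over 46 livers; filled points passed an adjusted p of 0.05 and vertical lines are medians. The medians of the pericentral and periportal lists lie at -0.66 and -0.84 in the knock-in and at 0.06 and -0.13 in the knockout.

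Within genotypes some of the genes also varied together. Log2 CPM had the group mean subtracted, and Glul was correlated with the other 9 genes over 46 livers, with 100000 permutations within groups (2-sided) and Benjamini-Hochberg adjustment over the 9. Of the 9, 5 passed. The share of all genes that would pass with Glul was not computed, so this count does not set these genes apart. Lect2 was highest (Pearson r = 0.56, permutation p = 0.00019, adjusted 0.0017; Spearman rho = 0.55, permutation p = 0.00022), followed by Slc1a2 (r = 0.46, permutation p = 0.0025; rho = 0.42, permutation p = 0.0085), Rhbg (r = 0.44, permutation p = 0.0073; rho = 0.49, permutation p = 0.0017), Oat (r = 0.42, permutation p = 0.0029; rho = 0.40, permutation p = 0.0061) and Axin2 (r = 0.34, permutation p = 0.025; rho = 0.34, permutation p = 0.032). The adjusted values of r for these were 0.0087, 0.016, 0.0087 and 0.045, and that of rho for Axin2 was 0.058. Without the 2 livers whose Glul lay farthest from the median, r was 0.57 for Lect2, 0.38 for Slc1a2, 0.42 for Rhbg, 0.38 for Oat and 0.41 for Axin2. Lgr5, Tbx3, Gulo and Rnf43 gave r of 0.25, 0.22, 0.21 and -0.02 and did not pass. With 48 livers r was 0.72 for Lect2, 0.60 for Slc1a2, 0.43 for Rhbg, 0.68 for Oat and 0.40 for Axin2, and Tbx3 (0.45) and Gulo (0.31) passed too. The 2 added livers went against their labels, so these r also hold the difference between groups. Inside single groups of 7 or 8 livers, r between Glul and Lect2 ran from 0.39 in DN:HET to 0.84 in DN:WT livers, whereas r between Glul and Axin2 ran from -0.52 in KO:HET to 0.75 in KO:HOM livers.

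All 45 pairs of the 10 genes were then compared, a step added after the values had been seen. Of these 12 passed adjustment over the 45 (adjusted permutation p from 0.0013 to 0.037), each with a positive r. The share of all gene pairs that would pass was not computed. One set of pairs joined Axin2, Lgr5, Rnf43 and Tbx3. Its pairs were Axin2 and Tbx3 at r = 0.62, Rnf43 and Tbx3 at 0.58, Axin2 and Rnf43 at 0.46 and Lgr5 and Rnf43 at 0.45. The Spearman rho of the first 3 was 0.61, 0.55 and 0.41, and that of Lgr5 and Rnf43 was 0.24 (adjusted permutation p = 0.27). The other joined Glul, Oat, Lect2, Slc1a2, Gulo and Rhbg, with Oat and Lect2 at r = 0.61 and Oat and Slc1a2 at 0.57 (rho = 0.65 and 0.51). No pair that crossed from one set to the other passed the adjustment over 45. Glul and Axin2, which had passed the adjustment over 9, was at an adjusted permutation p of 0.085 here. The r of crossing pairs ran from -0.05 for Oat and Tbx3 to 0.36 for Lgr5 and Gulo, with Lgr5 and Slc1a2 at 0.35, Glul and Axin2 at 0.34 and Oat and Axin2 at 0.01. Scaled to hepatocyte markers, Axin2 had r = 0.40 with Oat and 0.59 with Lect2. With 48 livers Tbx3 had r = 0.45 with Glul, 0.31 with Oat and 0.27 with Lect2. The sets were thus less separate under both settings. Neither setting tests the separation, because a factor shared by all genes of a liver can raise every r. The 2 livers that went against their labels put the difference between groups into the values left after subtraction.

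**Figure D4:**
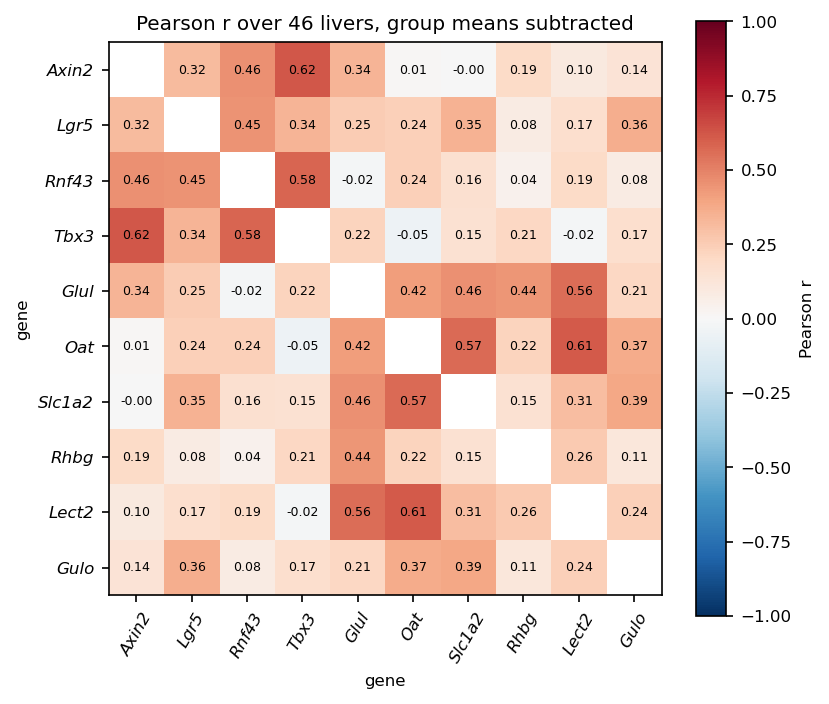
Pearson r of log2 CPM between each pair of the 10 genes over 46 livers after subtraction of group means (colour scale from -1 to 1, diagonal left blank). The pairs among Axin2, Rnf43 and Tbx3 lie between 0.46 and 0.62, and Oat with Lect2 lies at 0.61.

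Among 13252 other genes with a mean of at least 1 CPM, those whose variation within groups was among the 5 most like that of Glul over the 46 livers included Nalf2 (r = 0.74), Dio1 (0.73), Aldh1a1 (0.72) and Teddm2 (0.71). Aldh1a1 is in the list of pericentral genes, and Teddm2 lies within Glul on the opposite strand. For Axin2 the 5 were Tbx3 (0.62), Hs1bp3 (0.57), Kat14 (0.56), Nek6 (0.56) and Steap3 (0.55). These correlations are descriptive, since these genes were compared in the same libraries.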

How the data were processed

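RNA from 48 livers had been sequenced as stranded poly(A) libraries. The authors aligned the reads with STAR 2.5.0a to GRCm39 and deposited 1 table of raw read counts by gene per liver, with unstranded counts beside those of either strand. The strand with the larger total was used, which exceeded the other by 6.97 to 8.62 times. Lines that name no gene (24.02% to 34.99% of reads) were left out of library sizes and tests. Symbols and positions came from GENCODE M39, in which 98.8% of identifiers were found.

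Groups were taken from the labels, and the 10 genes and all lists were chosen with earlier results of these data known. A model of 6 group means was fitted with edgeR 4.0.16 in R 4.3.3 (filterByExpr with a minimum count of 10, TMM, quasi-likelihood F test), and p-values were adjusted over all genes tested (Benjamini-Hochberg, threshold 0.05). CPM were scaled by TMM over 48 livers, and log2 CPM used a prior count of 2. The 2 livers that went against their labels (DN:WT animal 10 and DN:HOM animal 12) were left out, as in the study's source data for 3 genes, and fitted in an alternative. The other alternatives were DESeq2 1.42.0, its type of size factors in edgeR, upper-quartile scaling, scaling to hepatocyte markers, no low-count filter, unstranded counts, the compared groups alone and livers of at least 10000000 reads. Library size alone, a fit without DN:HOM animal 33 and the 45 pairwise correlations were added after the data had been seen. P-values measure the spread between animals, since each liver is labelled with its own animal number.

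Named were the 10 genes, Nr1h3, the Wnt ligands and R-spondins, the 5 genes most like Glul and Axin2, and from each other list genes among the 4 largest changes in a homozygous comparison with an adjusted p under 0.05 and a mean of at least 1 CPM. One of the genes most like Glul is not reported here. Pygo1, Sfrp1, Notum, Cftr, Fzd3, Nkd2, Znrf3, Alb and Hpx were named after their values had been seen. Data of 15247 genes were simulated for DN:HOM against DN:WT, with 200 genes of a mean over 1 CPM changed. There edgeR called 85% of genes with a log2 change of 1 and 99% of those with a change of 2. Of unchanged genes, edgeR called 9 and DESeq2 called 21. In the data 59.1% of genes were called, so these shares may not hold there. Python 3.11.15 with numpy 2.4.6, pandas 2.3.3, scipy 1.17.1 and matplotlib 3.10.9 was used for the rest.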

Additional observations from a re-analysis of the deposited data

Results flagged for a closer look

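In all, 3 livers stood apart from the others of their group by the gap to the nearest liver, out of 60 combinations of gene and group, where chance alone gives about 1 in 20. Tbx3 was at 79.7 CPM in DN:WT animal 5, Oat at 1701 CPM in DN:HET animal 1 and Oat at 1927 CPM in KO:WT animal 31, each the highest of its group.

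The homozygous effect was called different between the knock-in and the knockout for 5 genes, where 34.7% of all genes differed and 18.3% were lower in the knock-in. Of the 5, Rhbg rested on at most 32 reads per liver and gives no support. The difference of log2 fold changes was -1.69 for Oat, -0.88 for Lect2, -0.78 for Glul, -0.74 for Tbx3 and -1.39 for Rhbg in edgeR's quasi-likelihood test (adjusted p from 6.3e-07 to 0.043). Each is given with its error in the report. With all 48 livers edgeR called 2 of the 10 genes, Oat and Lect2, beside 10.5% of all genes.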

How the results depend on the processing

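Of 683 alternatives for single values, 604 kept their direction and side of the threshold, 18 lost and 7 gained a call and 54 changed sign. Oat, Lect2 and Glul were called lower in DN:HOM livers under every alternative run (highest edgeR or DESeq2 adjusted p, 0.0021, 0.0056 and 0.036), and Tbx3 under all but library size alone (-0.33, adjusted p = 0.12). With library size alone Oat, Lect2 and Glul were at -1.04, -0.33 and -0.31 in DN:HOM livers, where the median of all genes was 0.42. Rhbg, with at most 32 reads per liver, is limited by depth. The cause of the changes below was not tested.

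Counts of genes called over all genes changed by more than 1.5 times as follows. With all 48 livers they were 2016 for KO:HOM (main 3048), 39 for DN:HET (main 361) and 1636 for the difference of effects (main 5456). With DESeq2 they were 617 for DN:HET and 10 for KO:HET (main 3). Scaling to hepatocyte markers gave 130 for DN:HET, 1 for KO:HET, 3346 for the difference and 1038 for the wild types (main 1887). Only the groups compared gave 5 for DN:HET and 1 for KO:HET, and no low-count filter gave 8 for KO:HET. Of the 10 genes, the difference of effects was called for 2 with 48 livers and 3 with library size alone (main 5), KO:HOM for 2 without livers under 10000000 reads (main 1), and the wild types for 1 with upper-quartile scaling and 0 with hepatocyte scaling, no filter or library size alone (main 2, edgeR). Hepatocyte scaling made 9 correlations with Glul pass (main 5). A factor shared by all genes of a liver can raise every r.

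Log2 fold changes of genes that had not passed changed sign as follows. In DN:HOM, library size alone gave Lgr5 0.29, Rnf43 0.16, Slc1a2 0.24, Rhbg 0.33 and Gulo 0.26, and unstranded counts gave Rhbg 0.04. In KO:HOM, Tbx3 was at 0.00088 (DESeq2-type size factors), 0.02 (upper quartile, and without shallow livers), 0.16 (hepatocyte) and 0.10 (library size), and Gulo at 0.0038 (48 livers), 0.01 (DESeq2 and its size factors), 0.03 (upper quartile), 0.20 (hepatocyte), 0.0046 (unstranded), 0.0036 (compared groups), 0.10 (library size) and 0.0037 (without DN:HOM animal 33). In DN:HET, Axin2 was at 0.06 (48 livers), 0.00031 (upper quartile), 0.0012 (compared groups) and 0.04 (library size), Tbx3 at 0.09 (48 livers), 0.01 (unstranded) and 0.04 (library size), Slc1a2 at 0.09 (48 livers) and 0.04 (library size), and Gulo at -0.09 (hepatocyte). In KO:HET, Rnf43 was at 0.004 (48 livers), 0.0025 (DESeq2), 0.01 (its size factors, no filter, compared groups, library size, and without DN:HOM animal 33), 0.02 (upper quartile), 0.06 (hepatocyte) and 0.05 (without shallow livers), and Gulo at 0.01 (upper quartile, library size), 0.09 (hepatocyte) and 0.0011 (compared groups). In the difference, Axin2 was at -0.06 (hepatocyte) and Gulo at 0.16 (library size). Between wild types, Glul was at 0.02 (48 livers), Oat at -0.12 (hepatocyte) and Lect2 at -0.01 (upper quartile), -0.15 (hepatocyte) and -0.03 (library size). The r of Glul and Rnf43 was 0.16 (48 livers), 0.41 (hepatocyte) and 0.01 (without shallow livers).

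No paired analysis was possible because the animal numbers name single mice and the replicate numbers follow accession order. Rhbg could not be tested in fits of only the groups compared where these left out KO:HOM livers.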

Other observations

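The gene most like Oat over the 46 livers after subtraction of group means was Lhpp, a phosphatase gene that lies 20.8 kb from Oat on chromosome 7 (r = 0.86, first of 13252 genes compared). It was chosen after its value had been seen. Lhpp was at 76 ± 13.3 CPM in DN:WT (SD, n = 7) and 30.3 ± 9.4 CPM in DN:HOM livers (SD, n = 7), a log2 fold change of -1.32 (SE 0.14; edgeR adjusted p = 1.6e-10). In KO:HOM livers it was at 70.1 ± 8.98 CPM and in KO:WT livers at 81.3 ± 7.5 CPM (SD, n = 8 each), a log2 fold change of -0.22 (SE 0.13; edgeR adjusted p = 0.25).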
